A study of Mus musculus with 18 samples.

Results

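Gene expression in JAK2V617F- progenitors cultured with a TNFR2 blocking antibody (TNFR2 BA) was set against that in the same kind of cells cultured with a TNFR1 BA. The comparison was chosen by the sample labels alone. It holds 6 of the 18 arrays of the series, 3 with TNFR2 BA and 3 with TNFR1 BA, paired by replicate number, and no untreated array. The marrow came from Balb/c mice with an established myeloproliferative neoplasm (MPN) driven by JAK2V617F, an activating mutant of the kinase JAK2, with GFP as the mark of the cells that carry it. Marrow was kept for 16 h in medium with SCF (100 ng/mL) and IL-3 (50 ng/mL), and either BA was used at 10 µg/mL. Lin-Kit+ cells were then sorted, and the GFP- fraction is called JAK2V617F-. The 3 untreated JAK2V617F- arrays (the same marrow, cytokines and sort, with no BA) and the 6 JAK2V617F+ arrays with a BA (the GFP+ cells of the same cultures) are given only for reference.

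The JAK2V617F- cells came from diseased marrow and were cultured together with the JAK2V617F+ cells, so they are not cells of a healthy animal. The methods describe 3 independent experiments, each with marrow of several mice, and each replicate number was read as 1 experiment. Both groups received a BA, and no isotype antibody was among the labelled groups. A difference between them can therefore lie in either BA.

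TNFR1 and TNFR2 are the receptors of tumor necrosis factor (TNF). TNFR1 is found on most cells and carries a death domain that recruits the adaptor TRADD, from which either NF-κB and MAP kinase signaling or caspase-dependent and RIPK3-MLKL-dependent death can follow. TNFR2 is found mainly on hematopoietic, immune and endothelial cells, has no death domain, and recruits TRAF2 with the ubiquitin ligases cIAP1 and cIAP2. NF-κB binds κB sites in DNA, and the MAP kinases act in part through AP-1 factors such as JUN and FOS.

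No gene differed between the 2 BAs at the threshold used. Of 10335 probe sets, 0 passed an adjusted p of 0.05 (limma, Benjamini-Hochberg), and the lowest adjusted p was 0.313. At an unadjusted p under 0.05 there were 467 probe sets (4.52%), where 517 would be called by chance. Of the 467, 279 were higher (2.7% of all probe sets) and 188 lower (1.82%) with TNFR2 BA, and these 2 shares are the background for the list counts given further on. The methods' t-test on the pairs gave 409 at that threshold and 0 after the adjustment. The 3 arrays of one BA lay wholly above the 3 of the other in 527 probe sets higher with TNFR2 BA (5.1%) and in 344 lower (3.33%). After quantile normalization of the arrays these counts were 433 higher and 489 lower, so the direction with more probe sets depended on the scaling. All 3 pairs went the same way in 1411 probe sets higher (13.7%) and 990 lower (9.58%). The median difference over all probe sets, on the log2 scale used throughout, was 0.08 (TNFR2 BA minus TNFR1 BA), and 0.01 after quantile normalization. With 3 pairs, an exact test of 1 gene could not give a two-sided p under 0.25.

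Arrays of different BAs correlated about as closely as arrays of 1 BA. The correlation of log2 signals across probe sets was 0.723 to 0.782 within TNFR2 BA and 0.699 to 0.731 within TNFR1 BA, all of different replicates. Between the 2 BAs it was 0.710 to 0.770 in different replicates and 0.743 to 0.789 in the same replicate. Median signals of the 6 arrays lay between 7.41 and 7.65. Each array had its lowest value at 2.22, and 6.70% to 9.26% of the probe sets were within 0.05 of it. At the lowest value no lower signal can be read.

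The error set what could be seen. The standard error (SE) of a difference had a median of 1.16, and the 95% confidence interval (CI) extended by a median of 2.46 to each side. A difference was over 1, in either direction, in 3759 probe sets, over 2 in 1175 and over 4 in 76. The CI lay wholly within 1 of 0 in 441 probe sets, each of them in the brightest 25% by mean signal, and within 2 of 0 in 2020. In the brightest 25% the median SE was 0.59, and in the dimmest 25% it was 1.26. For dimmer genes a fold change of several times could therefore not be told from 0.

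**Figure D1:**
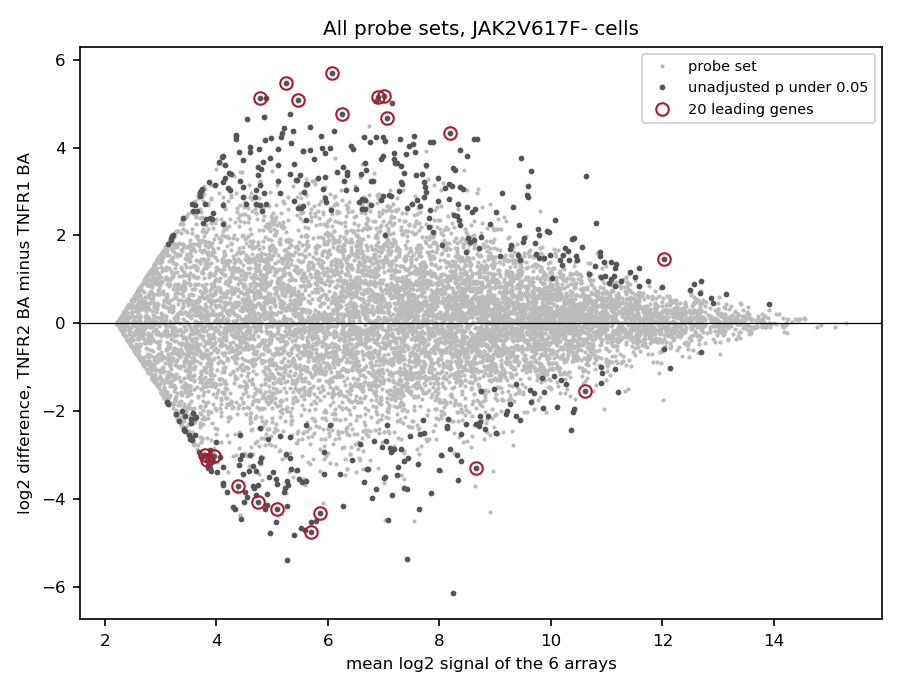
Log2 difference (TNFR2 BA minus TNFR1 BA) of each of the 10335 probe sets against its mean log2 signal over the 6 arrays. Dark points are the 467 past an unadjusted p of 0.05 and circles the 20 leading genes; the spread narrows at high signal, and the slanted left edge is set by the lowest value of 2.22.

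The leading genes were the 10 in each direction with the smallest unadjusted p among genes whose groups did not overlap and whose 3 pairs went the same way. Their size and p chose them, so their values are a description with no separate test. Their adjusted p ran from 0.313 to 0.874 and their differences, in either direction, from 1.46 to 5.70.

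Among the genes higher with TNFR2 BA, Rnf157, which encodes a RING-type ubiquitin ligase, had the smallest p. Its log2 signal was 6.24, 8.11 and 7.72 in the TNFR2 BA arrays (replicates 1, 2 and 3), against 2.22, 2.24 and 2.22 in the TNFR1 BA arrays and 2.22, 2.24 and 2.22 in untreated cells. The TNFR1 BA and untreated arrays were all at the lowest value or next to it, so the difference of 5.13 (SE 0.97, 95% CI 3.06 to 7.20, adjusted p = 0.313, limma) is set by where that value lies. Ggh, the lysosomal hydrolase that trims folate polyglutamates, had the same arrangement, with 6.51, 8.43 and 8.97 with TNFR2 BA, against 2.22, 2.71 and 2.62 with TNFR1 BA and 2.62 to 2.81 in untreated cells.

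Cox6b2, the testis isoform of a cytochrome c oxidase subunit, measured 10.83, 9.49 and 10.71 with TNFR2 BA, against 8.62, 2.80 and 6.64 with TNFR1 BA. The 3 untreated arrays, at 10.97, 9.21 and 9.50, lay with the TNFR2 BA arrays. The difference was 4.32 (SE 0.84, adjusted p = 0.313, limma). Frg1, a nuclear RNA-binding protein, was bright on all arrays and had the smallest SE of these genes: 12.86, 12.33 and 13.07 with TNFR2 BA, against 11.27, 11.57 and 11.03 with TNFR1 BA. Its difference was 1.46 (SE 0.30, 95% CI 0.83 to 2.10, adjusted p = 0.360, limma), and the untreated arrays lay between the 2 BAs at 11.96 to 12.29.

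In Tardbp, which encodes the RNA-binding protein TDP-43, the TNFR2 BA arrays had 8.39, 9.20 and 11.19, against 4.26, 4.39 and 4.63 with TNFR1 BA. Lpcat2, an enzyme that makes platelet-activating factor, showed little spread within either BA: 7.92, 7.91 and 8.19 with TNFR2 BA, against 3.25, 2.94 and 2.58 with TNFR1 BA. The difference of 5.08 still had an adjusted p of 0.688 (limma), since the SE of 1.23 is moderated by the spread over the 17 arrays of the fit. Macrod1, a mitochondrial hydrolase of ADP-ribose, had 9.75, 9.50 and 9.15 with TNFR2 BA, against 3.55, 5.85 and 3.58 with TNFR1 BA. The other 3 were Dus4l (difference 4.67), Ttc13 (4.77) and Vopp1, whose 5.70 was the largest difference in this direction.

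Among the genes lower with TNFR2 BA, Chd9, a chromodomain helicase, had the smallest p. It measured 2.22, 2.23 and 4.50 with TNFR2 BA, against 6.63, 7.76 and 7.23 with TNFR1 BA, a difference of -4.22 (SE 0.83, adjusted p = 0.313, limma). The untreated arrays, at 2.22, 2.22 and 3.18, lay with the TNFR2 BA arrays. Adam17, the protease that sheds TNF and both TNF receptors from the cell surface, had 3.58, 2.22 and 2.32 with TNFR2 BA, against 6.90, 8.25 and 5.18 with TNFR1 BA and 5.78, 3.10 and 2.93 in untreated cells. Its difference was -4.07 (SE 1.16, 95% CI -6.53 to -1.61, adjusted p = 0.874, limma).

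Atg5, needed to form autophagosomes, was at 3.15, 2.22 and 2.28 with TNFR2 BA, against 6.73, 7.77 and 4.22 with TNFR1 BA. Fgl2, a fibrinogen-like protein of immune cells with prothrombinase activity, had 6.83, 8.33 and 5.84 with TNFR2 BA, against 9.47, 10.20 and 11.23 with TNFR1 BA. In untreated cells it had 7.53, 10.33 and 8.44, which overlapped both BAs. Ckap5, a microtubule polymerase of the mitotic spindle, was the bright gene of this direction: 9.78, 10.19 and 9.56 with TNFR2 BA, against 11.41, 11.40 and 11.36 with TNFR1 BA and 11.33 to 11.73 in untreated cells. Its difference was -1.55 (SE 0.45, adjusted p = 0.874, limma). The remaining 5 were Pcca, a subunit of propionyl-CoA carboxylase (-4.32), 1700008J07Rik (-4.74), Tdo2, a tryptophan dioxygenase (-2.99), Smarce1, a BAF chromatin remodeling subunit (-3.10), and Sema6d, a semaphorin (-3.01).

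**Figure D2:**
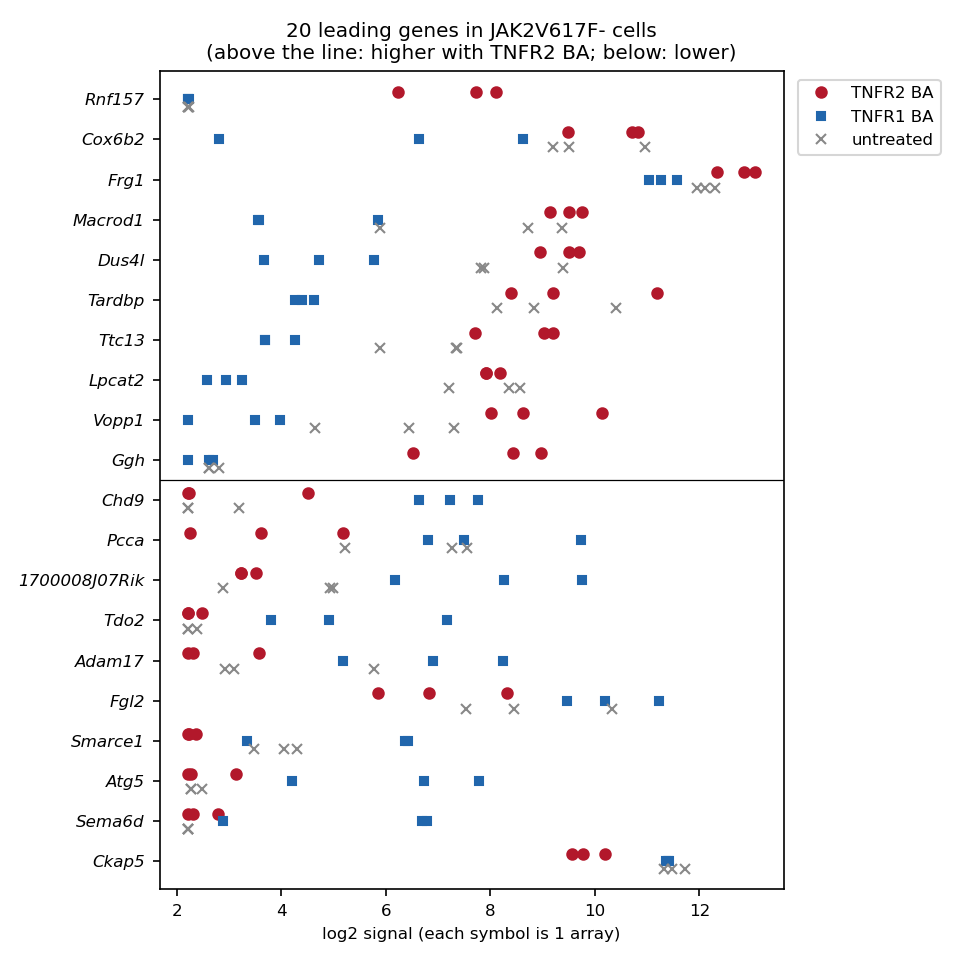
Log2 signal of the 20 leading genes in JAK2V617F- cells, 1 symbol per array (3 arrays per group): TNFR2 BA circles, TNFR1 BA squares, untreated crosses. Genes above the line were higher and genes below it lower with TNFR2 BA. The mean of the untreated crosses lies nearer the TNFR2 BA mean in 14 genes, a count with no share over all probe sets beside it.

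The mean of the untreated arrays lay nearer to that of TNFR2 BA in 14 of the 20 leading genes (8 of the 10 higher and 6 of the 10 lower) and nearer to that of TNFR1 BA in 6. This position was not used to choose the genes and was not tested. The same share was not counted over all probe sets, so the 14 have no background beside them. In 10 of the 20, at least 1 array of the lower BA was within 0.05 of the lowest value, 3 of them among the genes higher with TNFR2 BA and 7 among the genes lower.

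The 3 largest differences downward included genes whose arrays disagreed. Tnk2, a non-receptor tyrosine kinase (ACK1), had 11.02, 2.22 and 2.27 with TNFR2 BA, against 12.40, 10.69 and 10.84 with TNFR1 BA and 11.06 to 12.07 in untreated cells. The difference was -6.14 (SE 1.40, adjusted p = 0.504, limma), with replicate 1 of TNFR2 BA near the TNFR1 BA arrays and the other 2 at or next to the lowest value. Without that array Tnk2 was the one gene past the threshold (-8.82, adjusted p = 0.00014, limma), and without replicate 1 in every group it was again the one (-8.52, adjusted p = 0.0341). Pcbp3, a poly(C)-binding protein, had a difference of -5.38 (adjusted p = 1) and Snx16, a sorting nexin, one of -5.36 (adjusted p = 0.962).

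Because signaling from both receptors reaches κB and AP-1 sites, the promoters of leading genes were read beside that of Nfkbia, the gene of the NF-κB inhibitor IκBα and a known NF-κB target. The 250 bases before the start, from RefSeq on GRCm38.p6, are shown 5′ to 3′ for the leading gene of smallest p (Rnf157), the one leading gene with an AP-1 match (Fgl2) and Nfkbia, with matches in capitals to the κB letters (GGGA and then TTCC with 2 bases of any kind between them) or the AP-1 letters TGANTCA, on either strand.
Rnf157, chr11:116413033-116413282, minus strand: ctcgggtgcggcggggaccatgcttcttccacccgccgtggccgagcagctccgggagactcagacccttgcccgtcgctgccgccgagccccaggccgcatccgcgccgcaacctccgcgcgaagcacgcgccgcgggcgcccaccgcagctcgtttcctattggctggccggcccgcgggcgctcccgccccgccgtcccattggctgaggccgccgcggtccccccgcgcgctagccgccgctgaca
Fgl2, chr5:21372423-21372672, plus strand: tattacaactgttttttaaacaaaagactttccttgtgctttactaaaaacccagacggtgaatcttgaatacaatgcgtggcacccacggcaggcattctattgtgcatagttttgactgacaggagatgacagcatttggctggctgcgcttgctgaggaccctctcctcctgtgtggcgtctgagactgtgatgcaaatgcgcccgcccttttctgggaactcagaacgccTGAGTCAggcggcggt
Nfkbia, chr12:55492648-55492897, minus strand: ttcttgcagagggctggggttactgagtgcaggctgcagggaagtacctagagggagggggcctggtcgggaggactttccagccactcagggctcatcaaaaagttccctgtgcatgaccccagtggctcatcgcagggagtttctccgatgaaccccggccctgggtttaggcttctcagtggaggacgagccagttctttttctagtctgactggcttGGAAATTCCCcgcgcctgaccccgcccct
The κB letters were found in 0 and the AP-1 letters in 1 of the 17 leading genes with a RefSeq promoter. Over all 27025 genes with one, the shares were 1.36% and 7.82%. Among 29 NF-κB target genes with a promoter, 8 held the κB letters and 8 the AP-1 letters (27.6% each). The 2 motifs share no letters in the 3 promoters shown. A match describes letters in this window and not a bound site. Ggh, Smarce1 and Frg1 had no entry. Nfkbia itself had log2 signals of 11.41, 9.86 and 10.89 with TNFR2 BA, against 10.76, 12.13 and 11.50 with TNFR1 BA, which overlap (difference -0.74, 95% CI -2.12 to 0.64).

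Of 37 listed TNF receptor and proximal adaptor genes, 33 were measured. At an unadjusted p under 0.05, 1 was higher (Mlkl) and 1 lower (Adam17), near the 2.7% and 1.82% of all probe sets, 0 passed the adjusted threshold, and the median difference was -0.03, against 0.08 over all probe sets. Both receptors were measured in every array, and their groups overlapped. Tnfrsf1a, the gene of TNFR1, had 9.35, 8.04 and 9.94 with TNFR2 BA, against 8.66, 10.98 and 10.56 with TNFR1 BA (difference -0.95, 95% CI -2.60 to 0.69). Tnfrsf1b, the gene of TNFR2, had 11.80, 12.02 and 11.40 with TNFR2 BA, against 11.26, 10.59 and 12.17 with TNFR1 BA (difference 0.40, 95% CI -1.07 to 1.88). The transcript of neither blocked receptor thus separated the groups, and a BA acts on the protein, which was not measured. Measured here means present, by gene symbol, among the 10335 deposited probe sets. Tnf, Ripk1 and Traf3 were absent from these, which does not show that the array lacks them.

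On the death arm, Mlkl, the executioner of necroptosis, was dim, with 3.94, 6.95 and 3.70 with TNFR2 BA, against 2.25, 2.42 and 2.24 with TNFR1 BA (difference 2.56, SE 1.16, adjusted p = 1, limma). Ripk3, the kinase that activates MLKL, had 8.85, 10.22 and 9.40 with TNFR2 BA, against 8.31, 8.75 and 8.08 with TNFR1 BA; the groups did not overlap, yet the difference of 1.11 had a CI of -0.80 to 3.03. Tradd had 10.06, 10.44 and 9.91 with TNFR2 BA, against 8.26, 9.87 and 8.17 with TNFR1 BA (difference 1.37, 95% CI -0.38 to 3.12). Bag4, which binds the TNFR1 death domain and keeps it silent, had 5.44, 10.24 and 5.10 with TNFR2 BA, against 4.20, 2.32 and 4.88 with TNFR1 BA (difference 3.13, 95% CI -0.16 to 6.42). Ripk3, Tradd and Bag4 were singled out after their values were seen, and TRADD serves both arms. Of the 33 measured genes of the whole list, 16 had a difference above 0, so these picks do not describe an arm.

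On the arm toward NF-κB and MAP kinases, Traf5 had 4.23, 2.28 and 2.59 with TNFR2 BA, against 6.42, 2.49 and 5.67 with TNFR1 BA, with overlap. Tab3, which couples ubiquitin chains to the kinase TAK1, had 8.87, 7.50 and 6.08 with TNFR2 BA, against 9.04, 10.33 and 8.99 with TNFR1 BA, with no overlap (difference -1.97, 95% CI -3.98 to 0.04). These 2 were also singled out after their values were seen and do not describe the arm. Birc2 (cIAP1) had a difference of -0.24 (95% CI -2.27 to 1.78) and Birc3 (cIAP2) one of 0.99 (95% CI -1.85 to 3.83). Xiap, the X-linked inhibitor of caspases, had 9.70, 7.99 and 11.04 with TNFR2 BA, against 11.69, 8.52 and 11.26 with TNFR1 BA; each pair was lower with TNFR2 BA, but the difference of -0.91 had a CI of -3.11 to 1.29. Mapk8, the gene of the kinase JNK1, had 9.78, 9.76 and 8.15 with TNFR2 BA, against 10.14, 8.17 and 10.48 with TNFR1 BA (difference -0.37, 95% CI -3.20 to 2.47). The intervals of Birc2, Birc3, Xiap and Mapk8 each reach past 1 in both directions.

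**Figure D3:**
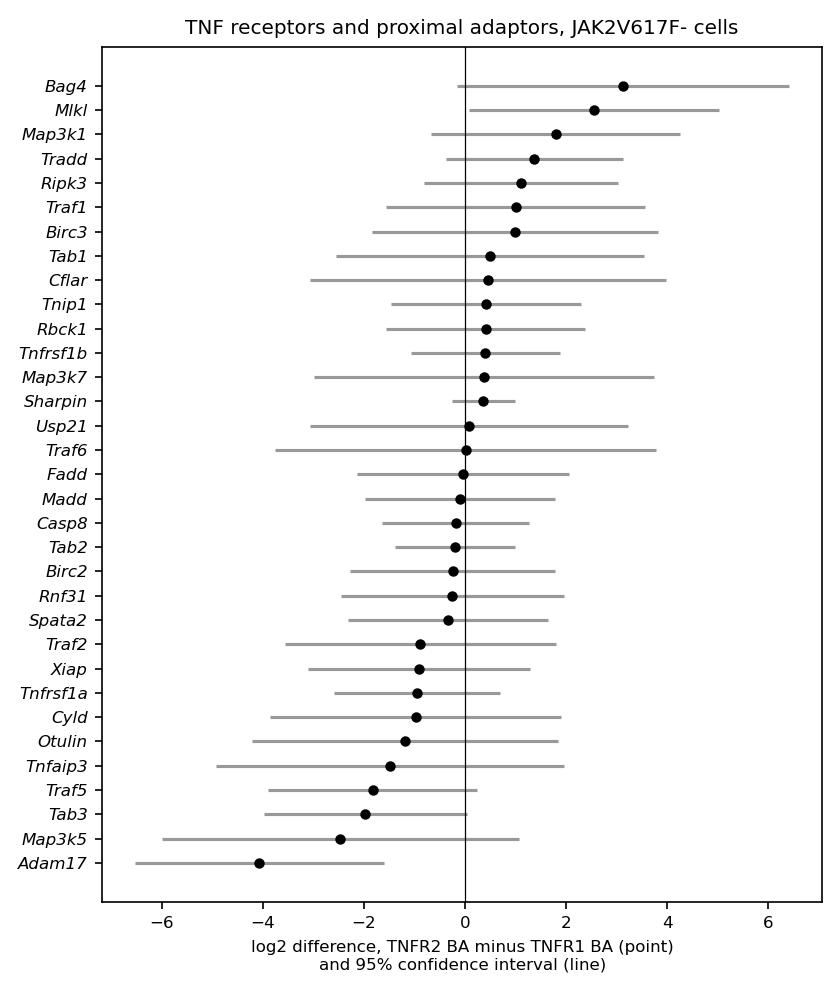
Log2 difference (TNFR2 BA minus TNFR1 BA, points) with its 95% CI (lines) for the 33 measured TNF receptor and proximal adaptor genes in JAK2V617F- cells, 3 pairs of arrays. The CI excludes 0 only for Mlkl (2.56) and Adam17 (-4.07), neither past the adjusted threshold.

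Downstream lists gave few members at an unadjusted p under 0.05 (over all probe sets 2.7% were higher and 1.82% lower) and 0 past the adjusted threshold. With lists of this size, 1 member is near that share. The 19 measured NF-κB factors, IκB proteins and IKK subunits had 0 in either direction and a median of -0.28. Of 28 measured NF-κB target genes, 0 were higher and 1 lower, Cd80, a costimulatory ligand: 5.06, 2.22 and 2.50 with TNFR2 BA, against 7.52, 9.26 and 2.22 with TNFR1 BA, with overlap. The 27 measured MAP kinase cascade genes had 1 higher, Jun (difference 2.57), an AP-1 subunit that measured 6.99, 8.27 and 6.76 with TNFR2 BA, against 6.77, 3.02 and 4.50 with TNFR1 BA. Jun was also one of 3 higher among 29 measured immediate early and stress genes, with Fosl2, another AP-1 subunit (3.55), and Hspa8, a constitutive chaperone (2.87), against 2.7% of all probe sets. In Fosl2 the TNFR2 BA arrays had 10.08, 6.73 and 7.35, against 7.36, 2.45 and 3.71 with TNFR1 BA. Hspa8 had 11.19, 11.65 and 10.26 with TNFR2 BA, against 9.02, 12.03 and 3.43 with TNFR1 BA. Its groups overlapped, and replicate 2 went the other way.

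Of 30 measured genes of the BCL2 family, caspases and IAPs, 1 was higher, near the 2.7% of all probe sets. This was Casp9, the initiator caspase of the mitochondrial pathway, with 8.30, 8.85 and 9.14 with TNFR2 BA, against 7.24, 2.64 and 3.68 with TNFR1 BA and 4.27 to 9.39 in untreated cells (difference 4.24, SE 1.30, adjusted p = 0.874, limma). Of 29 measured JAK-STAT and SOCS genes, 3 were higher and 0 lower, against 2.7% and 1.82% of all probe sets. Stat5b, a transcription factor downstream of JAK2, had 7.87, 7.77 and 7.20 with TNFR2 BA, against 6.57, 3.12 and 3.15 with TNFR1 BA (difference 3.33). Cish, a STAT5 target and feedback inhibitor, was bright and had 11.08, 10.05 and 10.48 with TNFR2 BA, against 10.41, 9.14 and 8.98 with TNFR1 BA (difference 1.03, SE 0.45). Ptpn2, a phosphatase of JAK kinases, had 4.20, 6.06 and 8.40 with TNFR2 BA, against 4.79, 2.38 and 2.38 with TNFR1 BA. Its difference was 3.04, with overlap and replicate 1 the other way. Each of the 3 had an adjusted p of 1. One of 27 cytokine receptors, Il2ra, was higher at 9.19, 9.76 and 8.39 with TNFR2 BA, against 6.63, 6.71 and 2.39 with TNFR1 BA (difference 3.87, adjusted p = 0.962, limma).

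**Figure D4:**
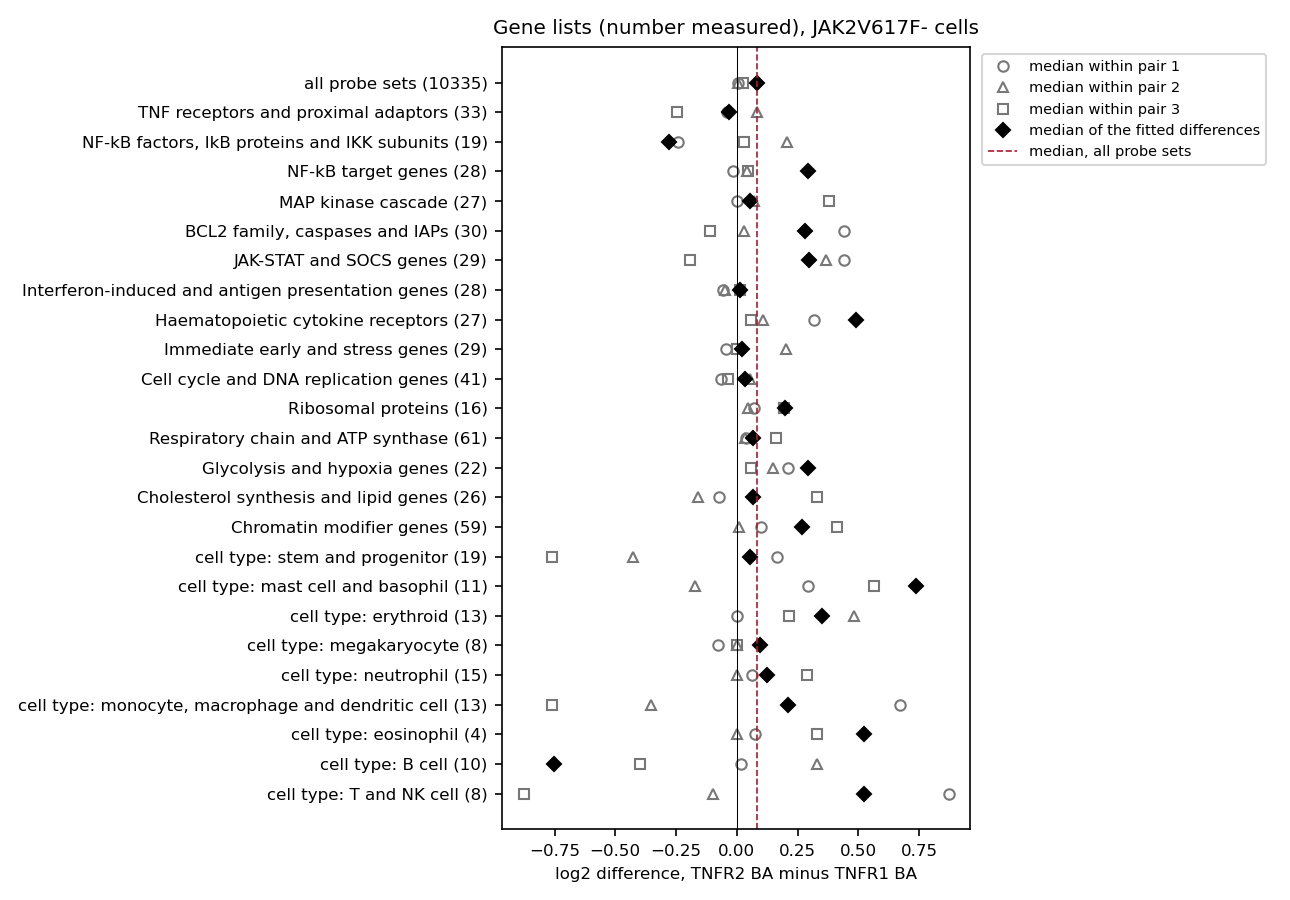
Median log2 difference (TNFR2 BA minus TNFR1 BA) of each gene list, with the number of genes measured: diamonds are medians of the fitted differences and open symbols medians within each of the 3 pairs. The dashed line is the median of all probe sets, 0.08; the 3 pairs lie far apart in several cell type lists, such as T and NK cells (8 genes).

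The respiratory chain and cell cycle genes were measured more precisely than most, with a median SE of 0.35 and 0.67, against 1.16 over all probe sets. Among 61 measured genes of the respiratory chain and ATP synthase, the CI lay within 1 of 0 in 33 and within 2 in 55. Of them 2 were higher at an unadjusted p under 0.05, the complex I subunits Ndufs8 and Ndufb7 (2.7% of all probe sets were higher), 0 were lower, and the median was 0.06. Ndufs8 had 11.59, 11.84 and 11.87 with TNFR2 BA, against 10.93, 10.42 and 9.80 with TNFR1 BA (difference 1.39, SE 0.45, adjusted p = 0.927, limma). Among 41 measured cell cycle and DNA replication genes, 0 passed the unadjusted threshold, the median was 0.04, and the CI lay within 2 of 0 in 21. The 28 interferon-induced and antigen presentation genes and the 26 cholesterol and lipid genes also had 0. Ribosomal proteins (16 of 60 measured) had 1 lower, Rpsa (-3.60). The 59 measured genes of the chromatin modifier list had 1 higher, Dnmt3b, a DNA methyltransferase (2.20), and 1 lower, Kat2b, an acetyltransferase (-4.82). The leading genes Chd9 and Smarce1 were not on that list, and Cox6b2 was not on the respiratory chain list. Glycolysis and hypoxia genes had 1 of 22, Adm, the vasoactive peptide adrenomedullin. It had 12.18, 2.22 and 2.22 with TNFR2 BA, against 12.40, 7.17 and 8.37 with TNFR1 BA, so that replicate 1 was high in both (difference -3.78, adjusted p = 1).

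Markers of the sorted cell and of other cell types were read in the same way. In these bulk samples, fewer cells of a type and less RNA per cell cannot be told apart. Of 19 measured stem and progenitor genes, 1 was higher (2.7% of all probe sets were), Cd34, a surface sialomucin of progenitors, at 11.50, 12.04 and 9.83 with TNFR2 BA, against 10.48, 10.85 and 7.12 with TNFR1 BA. The groups overlapped, but each pair was higher with TNFR2 BA (difference 1.64, SE 0.62, adjusted p = 1). Myb, a factor of progenitors singled out after its values were seen, was bright and close in both: 12.84, 12.35 and 13.19 with TNFR2 BA, against 12.64, 12.44 and 12.57 with TNFR1 BA (95% CI of the difference -0.26 to 0.74). Kit, by which the cells were sorted, varied widely on this array, with 6.01, 4.19 and 7.83 with TNFR2 BA, against 5.50, 8.78 and 9.20 with TNFR1 BA.

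For mast cells and basophils, 1 of 11 measured markers was higher (2.7% of all probe sets were), Tph1, the enzyme of serotonin synthesis in these cells, with 8.30, 7.48 and 9.40 with TNFR2 BA, against 3.31, 5.23 and 6.94 with TNFR1 BA (difference 3.23, SE 0.86, adjusted p = 0.874, limma). The mean signal of the 11 markers ranged over 7.37 to 8.76 with TNFR2 BA, against 6.20 to 7.99 with TNFR1 BA, and their median difference was 0.74. Of 13 erythroid markers 1 was lower, Ermap (-2.18), and of 13 monocyte, macrophage and dendritic cell markers 1 was lower, Cx3cr1, the fractalkine receptor, which was at 3.25, 2.26 and 2.26 with TNFR2 BA, against 2.26, 7.99 and 9.05 with TNFR1 BA. The 10 measured B cell markers had 0 past the unadjusted threshold and the lowest list median, -0.75. Their medians within the pairs were 0.019, 0.328 and -0.399 (replicates 1, 2 and 3), so the pairs did not go the same way. Their mean signal was 2.47 to 6.54 with TNFR2 BA, against 4.99 to 6.99 with TNFR1 BA. The low end of each range was replicate 3, as it was in untreated cells (3.295 to 7.18). Megakaryocyte, neutrophil, eosinophil, and T and NK cell markers had 0 past the unadjusted threshold. The part of other cell types in the gene differences was not tested.

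The same contrast in JAK2V617F+ cells of the same cultures had 0 probe sets past the adjusted threshold and 544 at an unadjusted p under 0.05 (5.26%), 232 higher and 312 lower with TNFR2 BA. The differences in JAK2V617F- and JAK2V617F+ cells were nearly unrelated across the 10335 probe sets (Pearson r = 0.010, Spearman rho = 0.016, a description over probe sets that share arrays). Of the 467 probe sets at an unadjusted p under 0.05 in JAK2V617F- cells, 237 (50.7%) had the same sign in JAK2V617F+ cells, against 50.6% of all probe sets. Of these 467, 22 were past the unadjusted threshold in the same direction in JAK2V617F+ cells and 25 in the opposite direction. Over all 10335 probe sets, 285 were past that threshold in JAK2V617F+ cells with the same sign as in JAK2V617F- cells and 259 with the opposite sign. The test of the difference between genotypes gave 0 probe sets past the adjusted threshold and 505 at an unadjusted p under 0.05 (4.89%).

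The leading genes of JAK2V617F- cells had the same sign in JAK2V617F+ cells in 13 of 20, and 1 of them, Macrod1, was past the unadjusted threshold there. Macrod1 had a difference of 5.14 in JAK2V617F- and 2.51 in JAK2V617F+ cells. Cox6b2 went the other way, at 4.32 in JAK2V617F- and -1.78 in JAK2V617F+ cells, and the difference between genotypes was 6.10 (adjusted p = 0.575, limma). In JAK2V617F+ cells Cox6b2 measured 10.02, 8.33 and 8.61 with TNFR2 BA, against 10.99, 10.04 and 11.27 with TNFR1 BA. The other genes of smallest p for the genotype difference were Pbdc1, Xiap, Akt2 and Commd6. Commd6, of a family of proteins that regulate NF-κB, had 10.55, 11.90 and 9.47 with TNFR2 BA, against 7.10, 10.33 and 6.57 with TNFR1 BA in JAK2V617F- cells (difference 2.64), and a difference of -2.59 in JAK2V617F+ cells. Pbdc1 had 1.05 in JAK2V617F- and -1.57 in JAK2V617F+ cells.

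For Xiap the genotypes stood apart by the JAK2V617F+ arrays. There it had 9.83, 10.53 and 12.01 with TNFR2 BA, against 2.22, 5.69 and 5.64 with TNFR1 BA, a difference of 6.27. In JAK2V617F- cells the difference was -0.91, and the difference between genotypes was -7.18 (adjusted p = 0.575, limma). Akt2, a kinase of the PI3K survival pathway, had 10.50, 7.90 and 9.04 with TNFR2 BA, against 11.77, 12.53 and 10.42 with TNFR1 BA in JAK2V617F- cells (difference -2.43, SE 0.68), and a difference of 2.08 in JAK2V617F+ cells. The related Akt1, singled out after its values were seen, had 8.81, 5.36 and 6.27 with TNFR2 BA, against 9.87, 10.52 and 9.08 with TNFR1 BA in JAK2V617F- cells (difference -3.01, SE 1.23), and a difference of 3.48 in JAK2V617F+ cells. The difference between genotypes was -6.49 for Akt1 and -4.51 for Akt2, with adjusted p of 0.823 and 0.663 (limma).

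**Figure D5:**
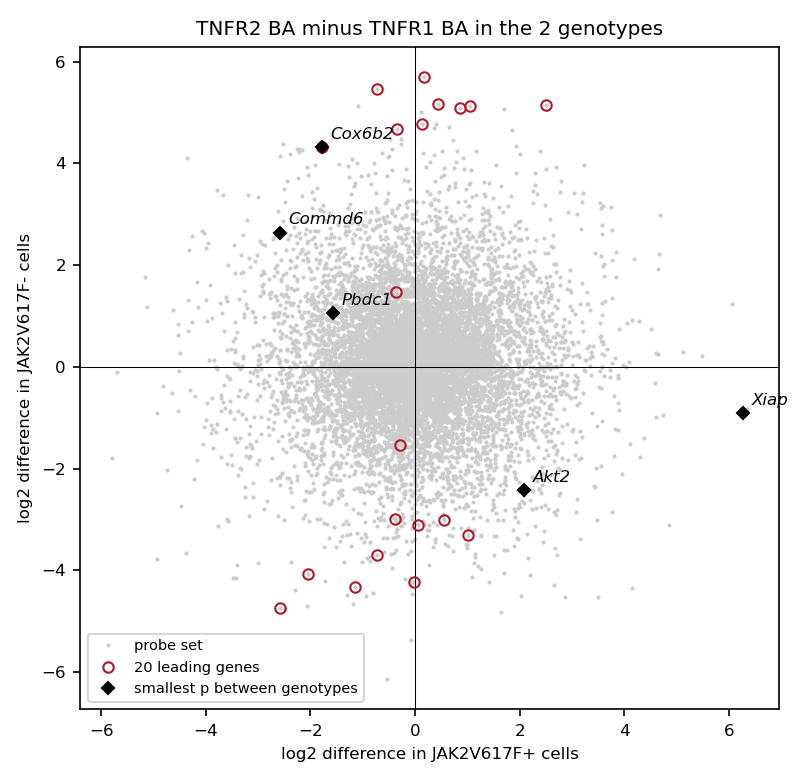
Log2 difference (TNFR2 BA minus TNFR1 BA) in JAK2V617F- cells (y axis) against that in JAK2V617F+ cells (x axis), 1 point per probe set. Circles are the 20 leading genes of JAK2V617F- cells and diamonds the 5 genes of smallest p for the genotype difference; across all points Pearson r is 0.010.

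In the respiratory chain and ATP synthase list, the share of genes above 0 differed between the genotypes. The genes were read on the same arrays and are not replicates, and the share was not tested. In JAK2V617F- cells the mean signal of the list overlapped, at 11.74 to 11.87 with TNFR2 BA, against 11.50 to 11.96 with TNFR1 BA. In JAK2V617F+ cells it was 11.51 to 11.63 with TNFR2 BA, against 11.88 to 11.96 with TNFR1 BA. Of its 61 measured genes, 38 had a difference above 0 in JAK2V617F- cells (54.1% of all probe sets did) and 8 in JAK2V617F+ cells (48% of all probe sets), where the median was -0.36 and 12 were lower and 1 higher at an unadjusted p under 0.05 (in JAK2V617F+ cells 3.02% of all probe sets were lower and 2.24% higher). The difference between genotypes was above 0 in 53 of 61 (54.5% of all probe sets), with a median of 0.39, against 0.14 over all probe sets. It passed the unadjusted threshold upward in 8 and downward in 1 (3.17% and 1.71% of all probe sets), and the adjusted threshold in 0. Uqcrb, a complex III subunit, had 0.62 in JAK2V617F- and -1.03 in JAK2V617F+ cells, and Ndufb10, of complex I, 0.15 and -1.16 in the same order. Cox7c, at -1.24 in JAK2V617F- and 3.87 in JAK2V617F+ cells, was the one downward. Uqcrb, Ndufb10 and Cox7c were singled out after their values were seen.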

How the data were processed

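RNA from Lin-Kit+ cells was amplified, biotin-labeled and hybridized to Affymetrix mouse expression arrays. The deposited values are log2 signals, 1 for each of 10335 probe sets, from software that the submitters' processing notes name as Affymetrix Expression Console. Neither the labels nor the methods say how they were normalized or how these probe sets were chosen. Of these probe sets 9651 have 1 gene symbol on the platform annotation, and 15 genes with several are represented by that of highest mean. The 17 arrays kept by the study (untreated JAK2V617F+ replicate 3 was excluded) were fitted in limma 3.58.1 (R 4.3.3) with 6 group means, the replicate number as a block and variances with a trend. In this fit the contrast equals the mean of 3 paired differences, and the other arrays inform only its error. Where a single array of either BA was left out, the other groups also entered the difference through the replicate block. P-values were adjusted over all probe sets (Benjamini-Hochberg). They set a difference against the spread left over the 17 arrays once group means and replicate number are taken out. The replicate number was read as the experiment the methods describe, and the block follows from that. Scripts were tested on simulated data. The members, the 24 gene lists and the tests were chosen with earlier results of these data known. Named genes were the 10 leading genes in each direction, the 3 largest differences in each direction, list members at an unadjusted p under 0.05 (otherwise the 2 of smallest p), TNF pathway genes of interest and the 5 of smallest p between genotypes; others are said to be chosen after their values were seen. Alternatives were no block, fits on 6, 9, 12 or 18 arrays, quantile normalization, a filter on the dimmest 25%, variances without a trend, array weights, the methods' t-test and leave-one-out.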

Additional observations from a re-analysis of the deposited data

How the results depend on the processing

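No probe set passed the adjusted threshold under any alternative except where replicate 1 (1 probe set, Tnk2) or TNFR2 BA JAK2V617F- replicate 1 (1 probe set, Tnk2) was left out. The difference between genotypes also had 1 probe set past it without TNFR2 BA JAK2V617F- replicate 1. The lowest and highest of these counts over leave-one-out were 0 and 1. The filter on dim probe sets left 115 probe sets lower at an unadjusted p under 0.05 (218 higher). Counts of groups that did not overlap came to 993 to 1759 higher and 676 to 1400 lower over leave-one-out, since fewer arrays overlap less often by construction. Quantile normalization gave 433 higher and 489 lower that did not overlap (47.0% higher, against 60.5% as deposited), and 241 higher and 223 lower at an unadjusted p under 0.05.

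The pairing rests on the methods' 3 experiments. Deviations from group means correlated by 0.059, 0.066 and 0.178 between same-numbered TNFR2 BA and TNFR1 BA JAK2V617F- arrays. The mean of -0.050 for different numbers is no separate measure, since deviations sum to 0 within each group. Among arrays of other groups, 13 of 17 arrays had their highest correlation with an array of the same number. Over all groups, the mean correlation of same-numbered arrays was 0.008, 0.071 and 0.144 (replicates 1, 2 and 3), so it was weakest for replicate 1. With no replicate block, 382 probe sets were at an unadjusted p under 0.05 (220 higher and 162 lower) and 0 passed the adjusted threshold, so the block changed no call.

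Leave-one-out turned the sign of 12 named genes, each with an adjusted p above the threshold. The lowest and highest differences were -0.74 and 2.33 for Asb17, -0.74 and 0.39 for Birc2, -0.76 and 2.62 for Birc3, -0.41 and 0.33 for Itm2a, -1.34 and 0.62 for Mapk8, -2.32 and 0.96 for Cox7c, -0.25 and 0.52 for Ndufb10, -1.44 and 0.026 for Nfkbia, -0.070 and 1.33 for Siglecf, -1.77 and 0.035 for Tnfrsf1a, -0.11 and 0.99 for Tnfrsf1b, and -1.63 and 0.054 for Xiap.

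Arrays carry no counts, so 3 arrays a group, and the lowest value at which dim genes pile up, limit the precision.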
